A study of Rattus norvegicus with 15 samples.

Results

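Slc22a6, Slc22a5, Slc22a7 and Slc22a25 encode 4 membrane carriers of the SLC22 family of organic ion transporters, and their transcript levels were followed in rat kidney after cisplatin. Their probes were found by gene symbol in the annotation of the array, and the 4 genes were picked with earlier results of these data known. They are 4 of 401 genes with a named probe among 26857 probes. Each gene had 1 probe, all 4 probes had a signal on all 15 arrays, and all 4 were tested. Every group held 3 arrays, each hybridised with digoxigenin-labelled cRNA from total RNA on a 1-colour chemiluminescent array. The animals were male Wistar/ST rats 8 weeks old. The tubule arrays held tubules isolated under a microscope after saline, cisplatin at 2 mg/kg or cisplatin at 10 mg/kg. The whole kidney arrays followed cisplatin at 10 mg/kg or saline, and every injection was intraperitoneal. The labels do not state how long after injection the tissue was taken, nor that arrays of a group came from different animals. The spread behind the p-values is that between arrays and may be technical.

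Carriers of the SLC22 family move small charged molecules across the membranes of kidney and liver cells. In the proximal tubule, the organic anion transporter OAT1, the product of Slc22a6, sits on the blood side and takes up organic anions such as p-aminohippurate and many drugs in exchange for dicarboxylates of the cell. OCTN2, the product of Slc22a5, is the sodium-coupled carnitine transporter of the brush border and returns filtered carnitine to the cell. OAT2, the product of Slc22a7, is an organic anion transporter also found in liver, and in the rat kidney it is assigned to the late proximal tubule. Slc22a25, known as Ust1 in the rat, belongs to the branch of the organic anion transporters and is less well characterised. Cisplatin itself is known to enter proximal tubule cells mainly by an organic cation transporter of the same family, OCT2, which has no named probe here.

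The arrays had median signals between 201 and 470 before normalization, and correlated at 0.857 to 0.962 within groups and at 0.763 to 0.943 between groups after it. The lowest mean correlation with the rest of the arrays, 0.813, was that of replicate 3 of the saline whole kidneys. The label of the tubules was set against a list of 12 markers of the early and middle proximal tubule (S1 and S2), of which 8 had a named probe. In saline animals 6 of the 8 were higher in tubules than in whole kidneys at a limma adjusted p under 0.05. The same rule held for 2.12% of all tested probes and 16.2% of the named genes. The median difference of the 8 was 2.93 on the log2 scale. The difference ran from 0.39 ± 0.40 for Cubn, the cubilin gene, with overlap, to 8.74 ± 0.69 for Slc5a2 (SE, limma adjusted p = 0.697 for Cubn). Slc5a2, which encodes the glucose transporter SGLT2 of the early proximal tubule, had normalized signals of 88736, 119827 and 142317 in saline tubules, against 216, 175 and 517 in saline whole kidneys. Of 9 markers of S3, the last segment of the proximal tubule, 4 had a named probe. In the same comparison Slc7a12 (-3.86 ± 0.59, limma adjusted p = 0.00218) and Gc (-3.54 ± 0.80, limma adjusted p = 0.0251) were lower in tubules. Slc3a1 was lower without overlap (-1.11 ± 0.37, limma adjusted p = 0.130), and Napsa was higher (1.70 ± 0.31, limma adjusted p = 0.00728). Of the marker lists of glomerulus, loop and distal tubule, collecting duct, endothelium and stroma, 0 genes had a named probe, so those cells could not be followed. The 2 named leukocyte markers of a list of 8, C1qa and C1qc, had summed signals of 10154 to 21614 in tubules and 9985 to 14639 in whole kidneys after 10 mg/kg, against 4043 to 9330 in saline tubules and 3481 to 5226 in saline whole kidneys. Of these 2 genes 0 had a limma adjusted p under 0.05 against saline in either preparation. In tubules the log2 change was 1.11 for C1qa (limma adjusted p = 0.153) and 0.94 for C1qc, with overlap (limma adjusted p = 0.292). In whole kidneys both were higher without overlap, with a limma adjusted p of 0.0753 for C1qa and 0.0527 for C1qc. The 3 named injury markers of a list of 6, Havcr1, Lcn2 and Spp1, had summed signals of 53533 to 258105 in tubules and 265668 to 423347 in whole kidneys after 10 mg/kg, against 10337 to 20213 in saline tubules and 31125 to 68573 in saline whole kidneys. Most of this sum was Spp1, with means of 147069 in tubules and 313021 in whole kidneys after 10 mg/kg. The summed signal of the 8 S1 and S2 markers was 251076 to 306876 in tubules and 186875 to 260015 in whole kidneys after 10 mg/kg, against 991260 to 1534471 in saline tubules and 346048 to 439394 in saline whole kidneys. Most of the S1 and S2 sum was Slc34a1, with means of 199663 in tubules and 203711 in whole kidneys after 10 mg/kg. After saline its means were 851384 in tubules and 351079 in whole kidneys. The part of these 3 lists in the results below was not tested. In bulk samples fewer cells of a type and less RNA per cell cannot be told apart.

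The 250 bases before the annotated start of 3 of the 4 genes are shown, so that the letters in front of these genes can be read beside their changes. The reference table used here gave no entry for Slc22a6. The sequences are those of RefSeq on the rat assembly GRCr8, written 5′ to 3′ in the direction of the gene. Capitals mark 6-letter matches, on either strand, to GTTAAT (letters of HNF1 sites), CAAAGT (letters of HNF4 sites) or AGGTCA (the hexamer bound by many nuclear receptors).
Slc22a5 (chr10:38536073-38536322, minus strand): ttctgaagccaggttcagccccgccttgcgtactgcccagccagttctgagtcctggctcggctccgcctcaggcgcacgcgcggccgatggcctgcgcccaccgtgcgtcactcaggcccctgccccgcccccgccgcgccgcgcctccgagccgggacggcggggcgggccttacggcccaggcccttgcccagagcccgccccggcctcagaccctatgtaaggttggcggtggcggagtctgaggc
Slc22a7 (chr9:22045248-22045497, plus strand): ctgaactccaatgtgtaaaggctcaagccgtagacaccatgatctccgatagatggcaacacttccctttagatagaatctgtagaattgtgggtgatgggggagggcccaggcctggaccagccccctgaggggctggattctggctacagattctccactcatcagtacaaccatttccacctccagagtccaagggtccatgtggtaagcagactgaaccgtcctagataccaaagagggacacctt
Slc22a25 (chr1:214862341-214862590, minus strand): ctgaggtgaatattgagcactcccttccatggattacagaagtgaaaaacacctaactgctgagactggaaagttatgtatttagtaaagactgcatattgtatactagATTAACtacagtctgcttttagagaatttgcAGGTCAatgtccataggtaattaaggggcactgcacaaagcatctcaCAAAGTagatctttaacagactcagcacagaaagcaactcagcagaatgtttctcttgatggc
The window of Slc22a25 held 1 match to each of the 3 strings. The HNF1 letters lay on the opposite strand, with their first base 141 bases upstream of the start, the receptor hexamer 110 bases and the HNF4 letters 63 bases upstream. None of these letters overlapped. The windows of Slc22a5 and Slc22a7 held 0 matches to any of them, and the TATA letters TATAAA were in 0 of the 3 windows. Over 33469 promoter windows of the same length, 6.45% held the HNF1 letters, 12.9% the HNF4 letters, 14.1% the receptor hexamer and 12.9% the TATA letters. The G and C content was 74.4% for Slc22a5, 52% for Slc22a7 and 39.2% for Slc22a25, with a median of 51.2% over all windows. In the same annotation Slc22a25 and Slc22a6 are both on chromosome 1, and the annotated extent of Slc22a25 overlaps those of Slc22a6 and Slc22a8. The window printed for Slc22a25 lies inside that extent, at the start the RefSeq table gives. Related genes named UST4r and Ust5r lie beside Slc22a25, and binding of their transcripts to its probe was not tested. Slc22a7 is on chromosome 9 and Slc22a5 on chromosome 10.

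After 10 mg/kg cisplatin 3 of the 4 genes fell in isolated tubules, Slc22a25 to 5.26% of its signal in saline tubules, Slc22a6 to 17.2% and Slc22a5 to 20.0%. In whole kidneys 3 of the 4 also fell: Slc22a25 to 8.37% of saline, Slc22a7 to 13.7% and Slc22a5 to 30.2%. At 2 mg/kg 0 of the 4 passed the test. Of the 8 named S1 and S2 markers 7 also fell in tubules at 10 mg/kg, with a median of -2.06 on the log2 scale, and 3 fell in whole kidneys, with a median of -0.80. A gene was called where its adjusted p in the limma fit, with Benjamini-Hochberg adjustment over 26601 probes, was under 0.05. These percentages are ratios of normalized signals, and with no background measure in the files they may understate the fall of a probe that reached a low signal. In tubules at 10 mg/kg the same rule called 3.36% of all tested probes lower, and 46.6% of the named genes. In whole kidneys it called 3.53% of all tested probes and 46.4% of the named genes lower. All named genes are among 1219 probes that the authors put in their series table by a rule that is not known here, so a fall of 3 in 4 is to be read against the share of the named genes. The median change of the 4 genes on the log2 scale was -2.43 in tubules and -2.30 in whole kidneys, against -1.28 and -1.24 over the named genes and 0.03 and 0.02 over all tested probes.

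**Figure D1:**
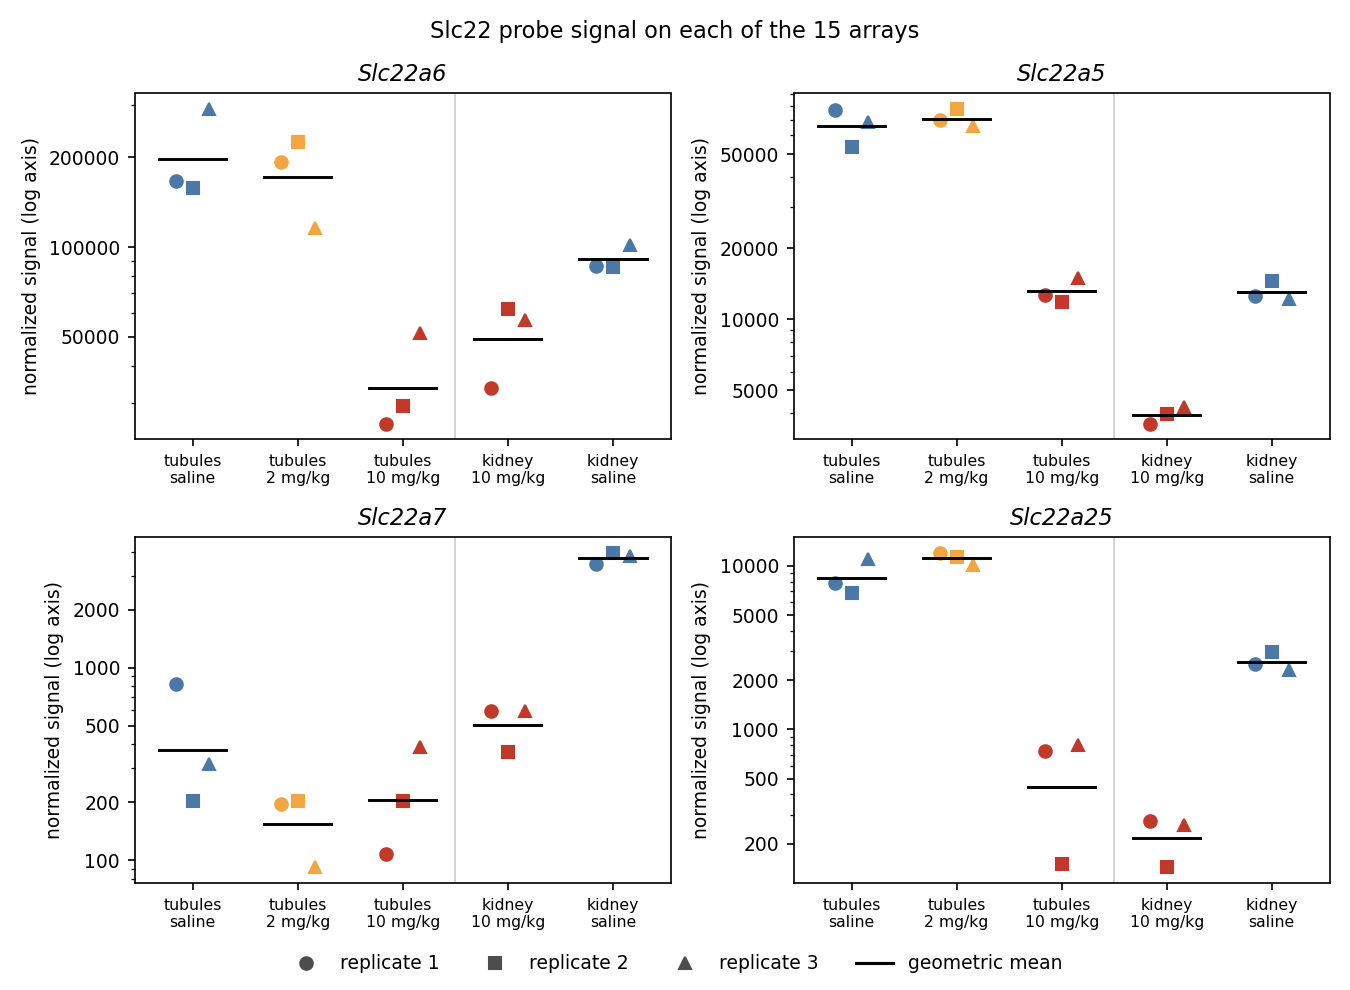
Normalized signal (log axis) of each Slc22 probe on every array, with 3 arrays per group marked by replicate number and a bar at their geometric mean; the tubule groups run by dose, then whole kidneys after 10 mg/kg and saline. Slc22a6, Slc22a5 and Slc22a25 lie lower in all 3 tubule arrays at 10 mg/kg than in any tubule array at 2 mg/kg or saline, and Slc22a7 is highest in saline whole kidneys, at 3433 to 3940.

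The OAT1 gene Slc22a6 was among the brightest probes of the array in every group, at the 97.8 percentile or above. Its normalized signal was 166211, 158143 and 289666 in the saline tubules, 192912, 225646 and 116164 after 2 mg/kg, and 25592, 29256 and 51636 after 10 mg/kg. The 3 arrays at 10 mg/kg all lay below the 6 others, while saline and 2 mg/kg overlapped. On the log2 scale Slc22a6 averaged 15.05 ± 0.54 (SD, n = 3) in tubules at 10 mg/kg and 17.59 ± 0.48 in saline tubules, a change of -2.54 ± 0.40 (SE, limma adjusted p = 0.00162). Between the doses it was lower at 10 than at 2 mg/kg by -2.34 ± 0.40 (limma adjusted p = 0.00246). Against saline the 2 mg/kg tubules differed by -0.20 ± 0.40, with a 95% interval, unadjusted for the number of probes, of -1.05 to 0.65.

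In whole kidneys Slc22a6 had signals of 33819, 62259 and 56809 after 10 mg/kg, against 86715, 86018 and 101894 after saline. The groups did not overlap, but the difference of -0.89 ± 0.40 did not pass the test over all probes (limma adjusted p = 0.223). Its 95% interval ran from -1.74 to -0.04. In saline animals the signal in tubules was 2.16-fold that in whole kidneys (1.11 ± 0.40 on the log2 scale, limma adjusted p = 0.160), and all 3 tubule arrays lay above all 3 kidney arrays. That difference was past the threshold without scaling between arrays (2.20, limma adjusted p = 0.0351) and with the values of the authors' series table (1.59, limma adjusted p = 0.0100). The series table fit was adjusted over only the 1219 probes that the authors chose. With median centring over all tested probes the difference was 1.57 (limma adjusted p = 0.108). After 10 mg/kg the tubule and kidney signals overlapped (-0.54 ± 0.40, limma adjusted p = 0.463). Ordered by mean level, Slc22a6 ran from saline tubules through 2 mg/kg tubules, saline whole kidneys and 10 mg/kg whole kidneys to 10 mg/kg tubules, and the ranges overlapped between the first pair and between the last pair of neighbours.

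The carnitine transporter gene Slc22a5 had SDs between 0.12 and 0.26 on the log2 scale within the 5 groups. In tubules its normalized signal was 76566, 53536 and 68534 after saline, 69793, 77462 and 65537 after 2 mg/kg, and 12712, 11852 and 15008 after 10 mg/kg. Saline and 2 mg/kg overlapped, and the 10 mg/kg arrays stood well below both. Its log2 level was 13.68 ± 0.17 (SD, n = 3) at 10 mg/kg and 15.999 ± 0.26 after saline, a change of -2.32 ± 0.27 (SE, limma adjusted p = 0.000273). Tubules at 2 mg/kg differed from saline by 0.11 ± 0.27, with an unadjusted 95% interval of -0.47 to 0.69. Against 2 mg/kg the 10 mg/kg tubules were lower by -2.43 ± 0.27 (limma adjusted p = 0.000151).

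Whole kidneys had Slc22a5 signals of 3609, 3952 and 4262 after 10 mg/kg, against 12526, 14461 and 12215 after saline. The gene fell there by 1.73 ± 0.27 on the log2 scale (limma adjusted p = 0.00196). Without scaling between arrays the change was -1.95 and did not pass the test (limma adjusted p = 0.146). Slc22a5 was 5.03-fold higher in tubules than in whole kidneys of saline animals (2.33 ± 0.27 on the log2 scale, limma adjusted p = 0.000277) and 3.34-fold higher after 10 mg/kg (1.74 ± 0.27, limma adjusted p = 0.00115). The tubules at 10 mg/kg and the saline whole kidneys overlapped in level, with means 0.01 apart on the log2 scale.

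Slc22a25 had the largest fall of the 4 genes in both preparations. In tubules its normalized signal was 7889, 6870 and 11058 after saline, 12023, 11320 and 10183 after 2 mg/kg, and 732.0, 149 and 798 after 10 mg/kg. The 10 mg/kg arrays lay far below the others and also apart from each other, replicate 2 lowest, at the 31.9 percentile of its array against 68.3 and 69.7 for the other two. The log2 level was 8.79 ± 1.36 (SD, n = 3) at 10 mg/kg and 13.04 ± 0.35 after saline, a change of -4.25 ± 0.53 (SE, limma adjusted p = 0.000346). Without 10 mg/kg replicate 2 the change was -3.46 (limma adjusted p = 0.000399), so the percentage of saline given above depends on that array. Among the 401 named genes it ranked 2 from the lowest change. The 2 mg/kg tubules differed from saline tubules by 0.40 ± 0.53, with an unadjusted 95% interval of -0.73 to 1.54, and between 10 and 2 mg/kg it was -4.65 ± 0.53 (limma adjusted p = 0.000178), or -3.87 without 10 mg/kg replicate 2 (limma adjusted p = 0.000184).

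In whole kidneys Slc22a25 had signals of 275, 143 and 259.8 after 10 mg/kg, against 2516, 2985 and 2322 after saline. The treated kidneys lay between the 30.3 and 49.5 percentiles of their arrays, and the saline kidneys between 83.7 and 86.2. The change was -3.58 ± 0.53 (SE, limma adjusted p = 0.00135). In saline animals the tubules had 3.25-fold the signal of the whole kidneys (1.70 ± 0.53 on the log2 scale), with no overlap and a limma adjusted p of 0.103. That difference was past the threshold with median centring (2.10, limma adjusted p = 0.0357), without scaling (2.74, limma adjusted p = 0.00823), with cyclic loess (1.67, limma adjusted p = 0.0369) and with the series table values (2.12, limma adjusted p = 0.00148). The last of these fits was adjusted over only the 1219 probes of that table. After 10 mg/kg the tubules and whole kidneys overlapped (1.03 ± 0.53, limma adjusted p = 0.266). Without 10 mg/kg tubule replicate 2 they differed by 1.82 (limma adjusted p = 0.00868).

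The OAT2 gene Slc22a7 had its level the other way round. Its signals were 823, 204 and 314 in saline tubules, against 3433, 3939.7 and 3777 in saline whole kidneys, where it was highest. The difference, tubules minus whole kidneys, was -3.31 ± 0.55 on the log2 scale (SE, limma adjusted p = 0.00375), or 9.90-fold. In whole kidneys after 10 mg/kg its signals were 597, 367 and 594.5, with no overlap with saline, and it fell by 2.87 ± 0.55 (limma adjusted p = 0.00629). Its log2 level there was 8.99 ± 0.40 (SD, n = 3) after 10 mg/kg and 11.86 ± 0.10 after saline. In tubules at 10 mg/kg the signals were 108, 204 and 388, which overlapped with saline (-0.87 ± 0.55, limma adjusted p = 0.503), and the unadjusted 95% interval was -2.05 to 0.30. At 2 mg/kg they were 195, 202 and 91.8, each below the lowest saline value of 203.5, but the difference of -1.29 ± 0.55 did not pass the test (limma adjusted p = 0.9999). In tubules the probe lay between the 13.2 and 70.1 percentiles of its arrays, and these signals are not known to be above background.

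Slc22a7 was set beside the 4 named markers, of a list of 9, of S3, the last segment of the proximal tubule. In saline tubule replicate 1, the array with the highest Slc22a7 among the tubules, Gc, the vitamin D binding protein gene, had 4151 against 626 and 578 in replicates 2 and 3. In the same array the amino acid transporter genes Slc7a12 and Slc3a1 had 4584 and 117890, against 1115 and 1177 for Slc7a12 and 55184 and 65583 for Slc3a1 in the other replicates. Napsa, the napsin A gene, did not follow: it had 56419 in replicate 1 and 59950.1 and 53339 in the others. Genes outside the S3 list were also highest in replicate 1 of the saline tubules. Slc25a20, a mitochondrial carrier gene, had 4038 there against 1637 and 1068, and the leukocyte marker C1qc had 4281 against 2967 and 1427. The summed signal of the 8 S1 and S2 markers was lowest there, at 991260 against 1250278 and 1534471. After 2 mg/kg Slc3a1 reached 122417 and 145111 in replicates 1 and 2, above its value in saline tubule replicate 1. The summed signal of the 4 markers was 116874 to 183044 in saline tubules, 157451 to 207767 after 2 mg/kg and 30828 to 56218 after 10 mg/kg, and in whole kidneys 22119 to 23314 after 10 mg/kg, against 205735 to 232754 after saline. In tubules Slc3a1 and Napsa made up most of it, with saline means of 79552 and 56569, against 1785 for Gc and 2292 for Slc7a12. Without saline tubule replicate 1, Slc22a7 differed between saline tubules and saline whole kidneys by -3.87 (limma adjusted p = 0.00145), and the 2 mg/kg difference was -0.72 (limma adjusted p = 0.9996). The part of the S3 segment in the tubule values of Slc22a7 was otherwise not tested.

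**Figure D2:**
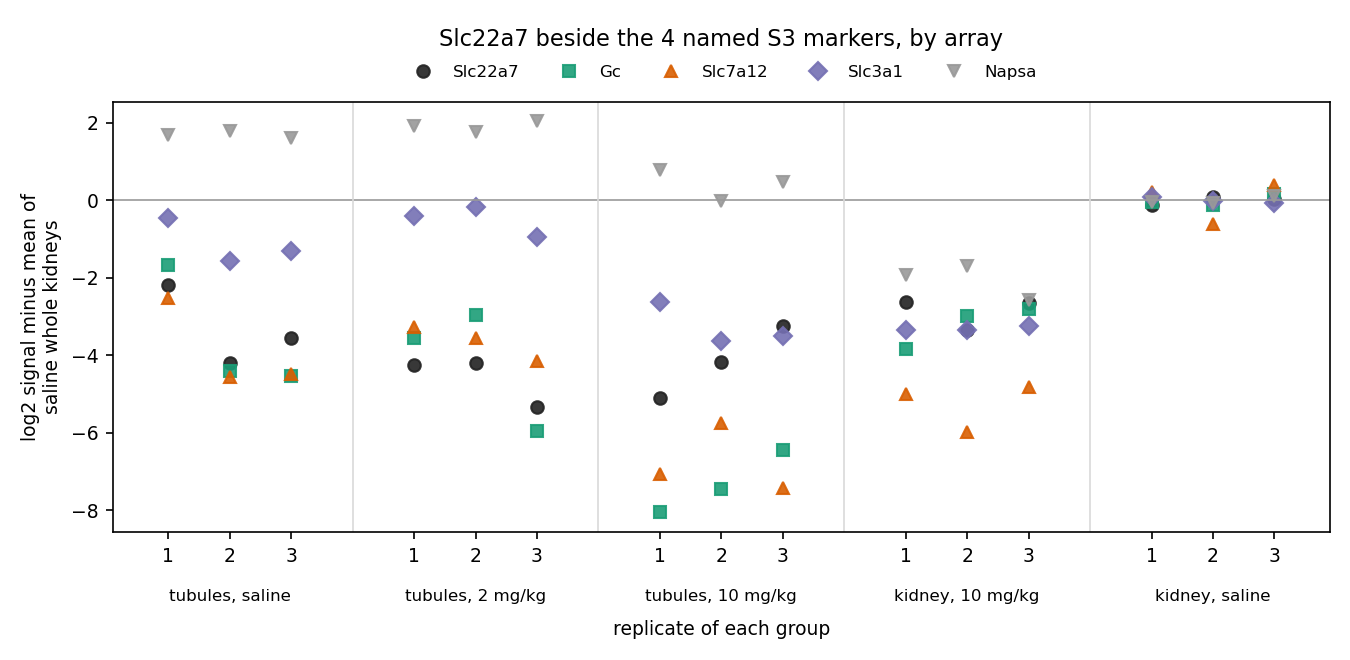
Log2 signal of Slc22a7 and of the 4 named S3 markers on each array, as the difference from the gene's own mean over the saline whole kidneys, with 3 arrays per group. Slc22a7, Gc and Slc7a12 lie below saline whole kidneys in all tubule arrays, with saline tubule replicate 1 nearest to 0 for these 3 genes, while Napsa lies above or near 0 in tubules. Slc3a1 also lies below 0 in all tubule arrays, but its array nearest to 0 is 2 mg/kg replicate 2.

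At 2 mg/kg the limma fit called 0% of 26601 probes, and 903 probes had an unadjusted p under 0.05. Of the 4 genes 1, Slc22a7, had an unadjusted p under that value, and 1, the same gene, had groups that did not overlap with the 2 mg/kg arrays lower, as had 5.59% of all probes and 6.73% of the named genes. With the series table values 0 of the 4 were called, and 23 of 1219 probes were, 10 lower and 13 higher. Between 10 and 2 mg/kg 3 of the 4 were lower at the higher dose, against 3.77% of all probes and 50.6% of the named genes. The comparisons of 10 mg/kg with saline and with 2 mg/kg share the 10 mg/kg tubule arrays. In tubules at 10 mg/kg 3 of the 4 genes did not overlap with saline, all lower, against 11.4% of all probes and 63.3% of the named genes. In whole kidneys 4 of the 4 did so, against 12.7% of all probes and 64.1% of the named genes.

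**Figure D3:**
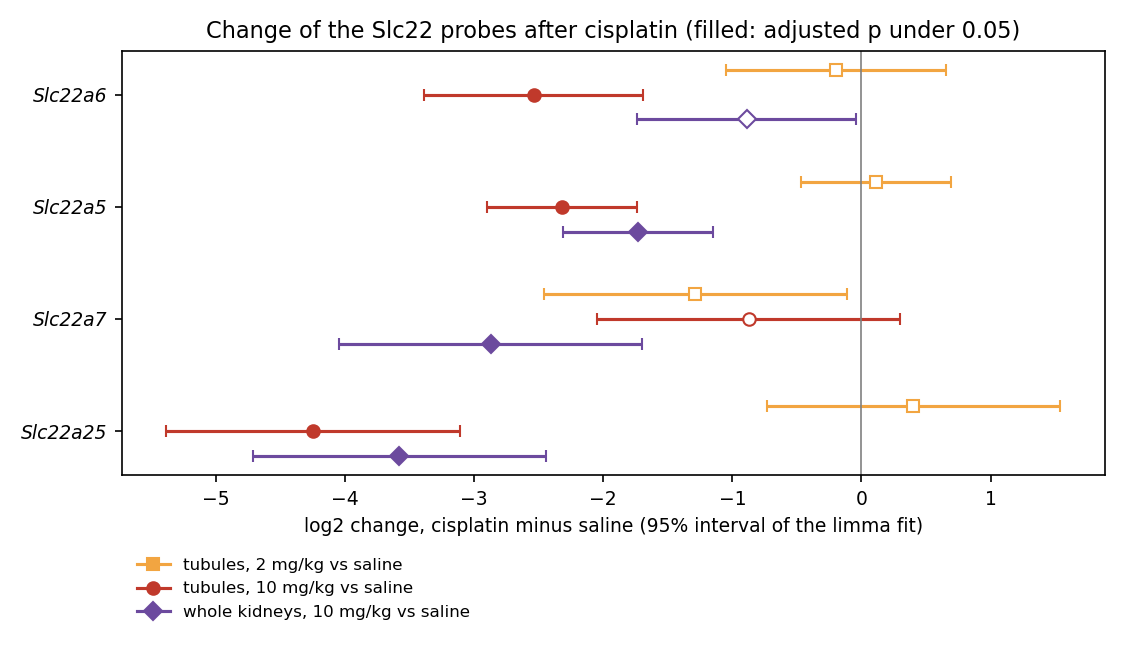
Log2 change of each Slc22 gene, cisplatin minus saline, with the unadjusted 95% interval of the limma fit; filled symbols passed an adjusted p of 0.05. In tubules the values at 2 mg/kg lie between -1.29 and 0.40 and those at 10 mg/kg between -4.25 and -0.87, and in whole kidneys at 10 mg/kg they lie between -3.58 and -0.89.

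The tissue comparisons differed by gene. In saline animals 1 of the 4 genes, Slc22a5, was called higher in tubules, against 2.12% of all probes and 16.2% of the named genes, and 1, Slc22a7, lower, against 1.46% and 7.98%. After 10 mg/kg 1 of the 4, Slc22a5, was called higher in tubules, against 5.85% of all probes and 21.4% of the named genes. Whether the change at 10 mg/kg differed between tubules and whole kidneys was tested as an interaction term. In that test 0 of the 4 genes passed, against 0.0376% of all probes called in either direction. An unadjusted limma p under 0.05 was found for 2867 of 26601 probes, and for 2 of the 4 genes. These were Slc22a6, whose change in tubules minus that in whole kidneys was -1.65 ± 0.56 (limma adjusted p = 0.310), and Slc22a7, with 2.00 ± 0.77 (limma adjusted p = 0.370). Their unadjusted 95% intervals were -2.85 to -0.45 and 0.34 to 3.66. The tubule signals of Slc22a7 are not known to be above background even after saline, so a fall there may not be measurable. For Slc22a5 the difference was -0.59 ± 0.38 and for Slc22a25 -0.67 ± 0.75, with intervals of -1.41 to 0.23 and -2.28 to 0.94. With the series table values Slc22a6 passed (-1.93, limma adjusted p = 0.0489), as did 176 of the 1219 probes of that table, 133 lower and 43 higher. That fit was adjusted over those 1219 probes only, not over the 26601 tested elsewhere.

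The 4 changes were compared within arrays, as the difference of the log2 levels of a pair of genes on the same array, for 6 pairs in each preparation. With 3 arrays against 3 an exact two-sided permutation test cannot go below 0.1, so these are given as values, each the signed change of the first gene minus that of the second. In tubules Slc22a6 minus Slc22a25 was 1.71, Slc22a25 having the deeper fall. That pair's levels differed by 6.25 ± 1.26 (SD, n = 3) at 10 mg/kg and by 4.54 ± 0.16 after saline. Slc22a5 minus Slc22a25 was 1.93 and Slc22a7 minus Slc22a25 was 3.38, and in these 3 pairs with Slc22a25 the groups did not overlap. The groups overlapped for the pairs without Slc22a25: Slc22a6 minus Slc22a5 was -0.22, Slc22a6 minus Slc22a7 was -1.67 and Slc22a5 minus Slc22a7 was -1.45. The tubule values of the pairs with Slc22a7 are limited by its signals there, which are not known to be above background. Those of the pairs with Slc22a25 depend in size on 10 mg/kg replicate 2, where its signal was 149 against 732.0 and 798. In whole kidneys the groups did not overlap for any of the 6 pairs. Slc22a6, whose own difference from saline was nearest to 0, differed in change from Slc22a5 by 0.84, from Slc22a7 by 1.98 and from Slc22a25 by 2.69. Slc22a5 minus Slc22a7 was 1.14, Slc22a5 minus Slc22a25 was 1.85 and Slc22a7 minus Slc22a25 was 0.71, so the order from the smallest to the deepest difference was Slc22a6, Slc22a5, Slc22a7 and Slc22a25.

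Genes related to these carriers were taken from 6 lists. Of 20 other SLC22 symbols and 26 drug efflux or uptake carriers 0 had a named probe. Slc22a9, among the 20, is also a synonym of Slc22a25. Of 8 genes listed around the dicarboxylate and sodium steps of organic anion exchange 3 had a named probe. All 3 fell in tubules at 10 mg/kg, with a median of -2.18, where 46.6% of the named genes were called lower. Of the 3 only Slc13a3 encodes a carrier of the dicarboxylates that OAT1 exchanges. Slc13a3, whose product NaDC3 brings the dicarboxylates that OAT1 exchanges into the cell, had tubule signals of 38244, 47971 and 81567 after saline, 65479, 76617 and 26106 after 2 mg/kg, and 9411, 14891 and 25709 after 10 mg/kg, a change at 10 mg/kg of -1.79 ± 0.46 (limma adjusted p = 0.0355). In whole kidneys it had 19021, 26076 and 27376 after 10 mg/kg, against 22696, 22665 and 20989.9 after saline (0.11 ± 0.46, limma adjusted p = 0.931). The sodium-sulfate cotransporter gene Slc13a1 fell by 2.18 ± 0.37 in tubules and by 1.52 ± 0.37 in whole kidneys (limma adjusted p = 0.00260 and 0.0237). Slc9a3, which encodes the sodium-proton exchanger NHE3, had a change of -2.99 ± 0.49 in tubules (limma adjusted p = 0.00224) and had -1.26 ± 0.49 in whole kidneys (limma adjusted p = 0.157).

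Of 7 gene symbols, some of them synonyms, listed around the PDZ scaffolds that hold carriers in the brush border, 2 had a named probe. Pdzk1, a scaffold to which OCTN2 is known to bind, fell by 1.72 ± 0.27 in tubules and by 1.26 ± 0.27 in whole kidneys (limma adjusted p = 0.00171 and 0.0130), and Pdzk1ip1 had -0.89 ± 0.36 in tubules (limma adjusted p = 0.203) and fell by 1.61 ± 0.36 in whole kidneys (limma adjusted p = 0.0148). Of 20 genes of carnitine synthesis and carnitine-dependent fatty acid oxidation 3 had a named probe, and 0 of the 3 passed the test in tubules at 10 mg/kg, with a median of -0.55. Slc25a20, the mitochondrial carnitine-acylcarnitine carrier gene, had 0.52 ± 0.52 there (limma adjusted p = 0.737) and -1.81 ± 0.52 in whole kidneys (limma adjusted p = 0.0538). Acadvl, the very long-chain acyl-CoA dehydrogenase gene, had -0.55 ± 0.43 in tubules (limma adjusted p = 0.623) and was the 1 of the 3 that fell in whole kidneys (-2.16 ± 0.43, limma adjusted p = 0.00775). Etfb, a subunit gene of the electron transfer flavoprotein, had -0.85 ± 0.37 in tubules (limma adjusted p = 0.249) and -1.13 ± 0.37 in whole kidneys (limma adjusted p = 0.0864).

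Of 15 transcription factor genes of the proximal tubule 2 had a named probe, and 0 passed in tubules and 2 fell in whole kidneys at 10 mg/kg. Hnf4a, which encodes a nuclear receptor that drives proximal tubule genes, spread widely in tubules, at 799 to 4785 after saline, 1106 to 5109.9 after 2 mg/kg and 41.1 to 682 after 10 mg/kg. Its change was -2.81 ± 0.93 in tubules (limma adjusted p = 0.107) and -3.43 ± 0.93 in whole kidneys (limma adjusted p = 0.0415). Nr3c1, the glucocorticoid receptor gene, had -1.12 ± 0.31 in tubules (limma adjusted p = 0.0505) and -1.23 ± 0.31 in whole kidneys (limma adjusted p = 0.0291). At 2 mg/kg 0 of these 10 genes passed.

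**Figure D4:**
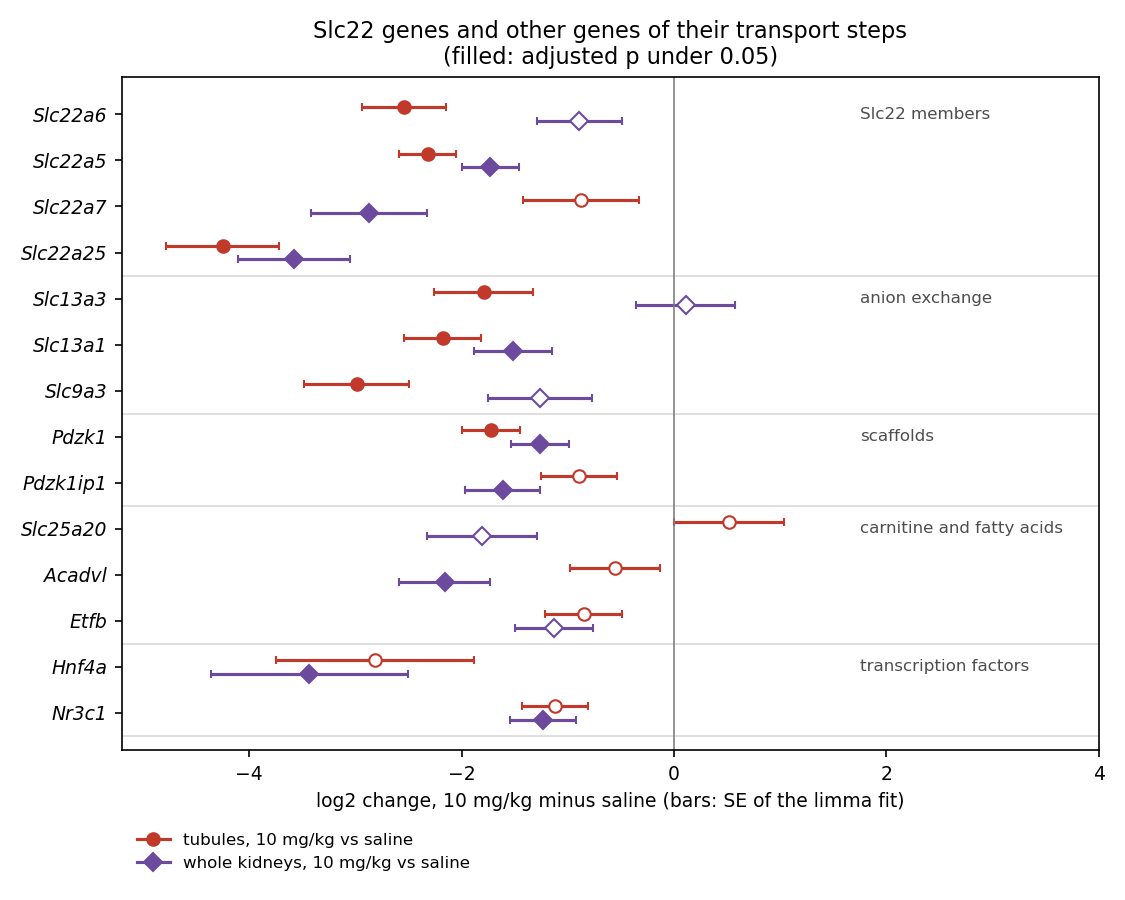
Log2 change at 10 mg/kg minus saline, in tubules and in whole kidneys, of the 4 Slc22 genes and of the 10 other listed genes with a named probe; bars are the SE of the limma fit and filled symbols passed an adjusted p of 0.05. Slc13a3 and Slc9a3 passed in tubules and not in whole kidneys, and Pdzk1ip1, Acadvl, Hnf4a and Nr3c1 in whole kidneys and not in tubules; the difference between the preparations passed for none of these 6 genes.

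The named genes with the level pattern most like each member were ranked by Pearson's correlation of normalized log2 signal over the 15 arrays, among 397 other named genes with all values. The arrays share normalization and the 5 groups, so these correlations mostly follow group means and are given as a description. Slc22a6 was nearest to the pyruvate carboxylase gene Pc (0.977), Naprt (0.942) and Cryl1 (0.940). Slc22a5 was nearest to the glycerol kinase gene Gk (0.981), the creatine synthesis gene Gatm (0.975) and Slc13a1 (0.972). Slc22a25 was nearest to Babam2 (0.975), the glycosyltransferase gene Galnt11 (0.967) and Slc37a4, the glucose 6-phosphate transporter gene (0.967). The nearest to Slc22a7 were less close: Osgin1 (0.883), Gjb5 (0.871) and Sipa1l1 (0.869). Among the 4 genes themselves the values were 0.911 for Slc22a5 with Slc22a25, 0.872 for Slc22a6 with Slc22a25 and 0.794 for Slc22a6 with Slc22a5, and between -0.34 and 0.02 for Slc22a7 with the others. For deviations from group means over the same arrays they were 0.70 for Slc22a5 with Slc22a7, 0.54 for Slc22a6 with Slc22a5, 0.43 for Slc22a5 with Slc22a25, 0.37 for Slc22a6 with Slc22a7, 0.20 for Slc22a6 with Slc22a25 and 0.16 for Slc22a7 with Slc22a25.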

How the data were processed

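Per the file headers and values, the authors deposited 1 signal intensity per probe and array on a linear scale, with no background or detection column. The scanner software and any background correction are not given in these sources. The authors' series table holds 1219 probes as a ratio, each deposited signal divided by 1 constant per array (between 195 and 446), within a relative tolerance of 1e-06.

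With limma 3.58.1 in R 4.3.3, log2 signals of the 15 arrays were quantile normalized, and normalized signals are those values on the linear scale. The test covered 26601 probes; 256 with fewer than 2 values in some group were left out. A single lmFit of the 5 group means gave 7 contrasts, each with a two-sided eBayes test. Of all probes 401 had 1 gene symbol, 2 had several and 26454 had none; all 401 matched RefSeq by Entrez identifier. Genes were named by a rule: the 4 members, up to 4 genes per list, and the 3 genes most like each member. The members and lists were chosen with earlier results of these data known. Alternatives were other scalings, the series table values, a filter on dim probes, array weights, a replicate block, only the arrays compared, and leaving out each array. The fit of the series table values was adjusted over its 1219 probes only. Precision is limited by having 3 arrays per group. The fit was tested on simulated data.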

Additional observations from a re-analysis of the deposited data

How the results depend on the processing

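The 3 falls in tubules at 10 mg/kg, against saline and against 2 mg/kg, and the 3 falls in whole kidneys kept their direction under all alternatives run, and all kept their call except that of Slc22a5 in whole kidneys without scaling. Without scaling the falls in tubules against saline were larger, at -3.31 for Slc22a6, -3.05 for Slc22a5 and -4.71 for Slc22a25, with a median of all probes of -0.32. The numbers of probes called in tubules at 10 mg/kg were 894 lower and 659 higher, against 737 and 341 with median centring and 788 and 129 without scaling. Between the doses they were 1004 and 707, against 973 and 352 with median centring, 868 and 142 without scaling and 1652 and 1433 with array weights; in whole kidneys 938 and 779, against 420 and 255 with median centring and 249 and 107 without scaling. Between saline tubules and whole kidneys they were 389 and 565, against 239 and 558 with median centring and 70 and 1245 without scaling, and after 10 mg/kg 1256 and 1557, against 479 and 1071 and 187 and 1061. Fits of only the arrays compared called 656, 1098, 522, 293 and 977 probes in these 5 comparisons, against 1553, 1711, 1717, 954 and 2813. For the difference of changes the 10 probes called became 0 with only the arrays compared and with the replicate block, 2 with median centring and without scaling, 15 with cyclic loess and with quantile normalization within each tissue, 17 with array weights, 29 without the dimmest probes, and 0 to 15 with 1 array left out. Leaving out 1 array cut other counts by over 1.5 times: to 956 in tubules at 10 mg/kg without saline tubule replicate 3, to 927 and 936 between the doses without 2 mg/kg replicate 1 or 2, to 552, 562 and 563 between the saline preparations without tubule replicate 2, tubule replicate 3 or whole kidney replicate 3, and to 1779 after 10 mg/kg without tubule replicate 1. In saline animals all 4 genes were called between tubules and whole kidneys without scaling and with the series table values, against 2 as reported. Without scaling the median of all probes was 0.61. With the series table values 406 of 1219 probes were called in that comparison, 79 lower and 327 higher. After 10 mg/kg leaving out 1 array gave 1 to 2 genes called between tubules and whole kidneys, and with the series table values 1 gene had a different change in the 2 preparations, against 0. Values near 0 changed sign: Slc22a6 at 2 mg/kg with array weights (0.038) and with 1 array left out (between -0.39 and 0.085), Slc22a5 at 2 mg/kg without scaling (-0.012) and with 1 array left out (between -0.034 and 0.22), Slc22a7 between the doses (between -0.049 and 0.87 with 1 array left out), Slc22a6 after 10 mg/kg between the preparations without scaling (0.0024), and the difference of the Slc22a25 changes between the preparations (between -1.09 and 0.12 with 1 array left out). The cause was not tested. No pairing by replicate number was visible: deviations of same-numbered arrays correlated between -0.14 and 0.13, which cannot show that the arrays were unpaired. With the replicate as a block 3 of the 4 genes were called in tubules at 10 mg/kg, 3 between the doses, 3 in whole kidneys, 2 between saline tubules and whole kidneys, 1 after 10 mg/kg, and 0 at 2 mg/kg and 0 for the difference of changes.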
